A study of Mus musculus with 9 samples.

Results

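The tetraspanins measured here are 28 genes of 19938 on the array, compared between 4 control livers and 5 hepatocellular carcinomas (HCC) of mice. They were taken by name: 19 genes called Tspan with a number, and Cd9, Cd37, Cd53, Cd63, Cd81, Cd82, Cd151, Upk1a and Upk1b. Each had 1 probe set, so no choice between probe sets was needed. The controls were healthy livers of monotransgenic Rosa26-lsl-NICD mice, which carry the intracellular domain of Notch1 (NICD) behind a stop cassette and no Cre. The tumours came from AFP-NICD mice, which are bitransgenic: they carry AFP-Cre as well as Rosa26-lsl-NICD. There the alpha-fetoprotein promoter, active in fetal liver cells, drives Cre, which removes that stop. Both groups therefore carry the NICD allele, and both were 6 to 12 months old on a hybrid 129 x C57BL/6 background. The comparison asks how liver tumours with constitutively active Notch differ from liver in which the transgene is silent, and it sets tumour tissue against whole liver.

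Tetraspanins are small proteins that cross the membrane several times and expose a small and a large extracellular loop. They bind integrins, growth factor precursors, immunoglobulin-like proteins and each other, and so order adhesion and signalling proteins into membrane domains. Several are abundant on exosomes, one group escorts the protease ADAM10, which makes the cut that starts Notch receptor activation, and others are restricted to leukocytes or to the urinary tract.

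Of the 28 tetraspanins, Cd63 and Tspan8 rose in HCC and none fell (limma with Benjamini-Hochberg adjustment over all 19938 genes, adjusted p threshold 0.05). Over all genes the share called higher was 0.858% and the share called lower 0.160%. Every HCC array lay above every control array for 3 members, Cd63, Tspan8 and Tspan6, and below them for none, against 5.63% and 3.86% of all genes. At an unadjusted p below 0.05 in limma, 7 members were higher and none lower, against 10.5% and 9.85% of all genes. These 7 were Cd63, Tspan8, Tspan6, Tspan13, Cd9, Tspan3 and Tspan5. The log2 change was positive for 14 members and negative for 14, against 8481 and 11457 of all genes. Its median was 0.021 against -0.033 over all genes. The change was at least 1, a doubling, in 5 members (1.95% of all genes) and at most -1 in none (1.57% of all genes). The family therefore held a few genes with large rises among members with small differences. Of the 28, 12 had a mean level not above the median of all genes, and these data do not show whether they were detected. Those 12 were Cd37, Tspan1, Tspan2, Tspan5, Tspan6, Tspan10, Tspan15, Tspan18, Tspan32, Tspan33, Upk1a and Upk1b. The fit used 9 arrays, and their small number limits the precision of each value.

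**Figure D1:**
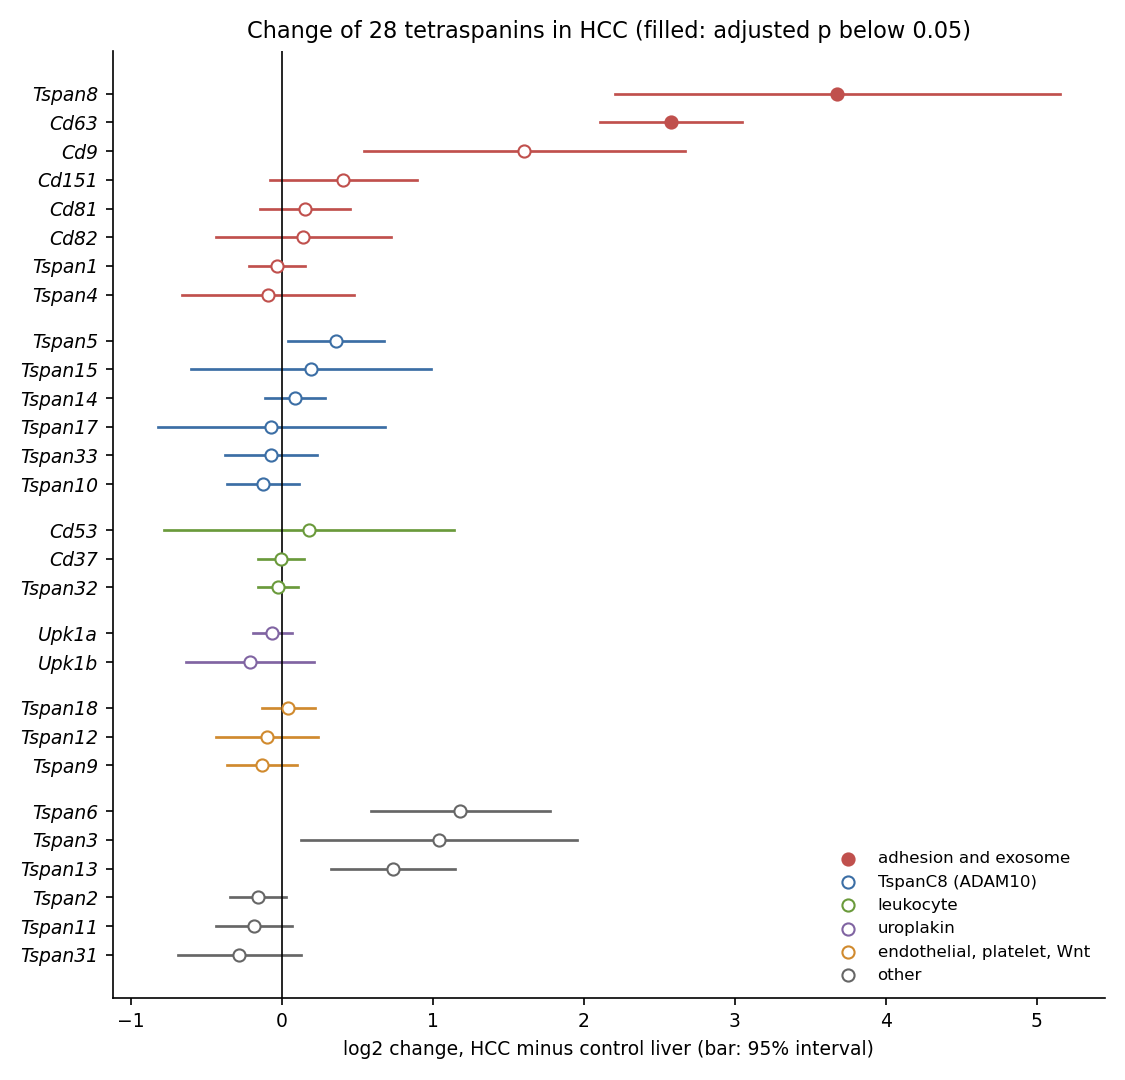
Change of each tetraspanin in HCC. The horizontal axis gives the log2 change, HCC minus control liver, with its 95% interval from limma; genes are grouped by role, and filled points passed an adjusted p of 0.05. Cd63 and Tspan8 are the filled points, and no member lies below -0.28.

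Cd63, a tetraspanin of late endosomes, lysosomes and exosomes and a partner of the inhibitor TIMP1, had the smallest p of the family. Its log2 intensity was 9.73, 10.33, 9.96 and 9.77 in control livers 1 to 4. In HCC arrays 1 to 5 it was 12.70, 12.89, 12.41, 12.73 and 11.90. The groups did not overlap: the lowest tumour, HCC array 5, lay well above the highest control. Means were 9.95 ± 0.28 (SD, n = 4) and 12.53 ± 0.39 (SD, n = 5), a 5.97-fold rise (log2 change 2.58, SE 0.21, limma adjusted p = 0.00323). Among all 19938 genes Cd63 had the 3rd smallest p and the 29th largest log2 rise. The call held under all 18 alternatives, with log2 changes from 2.45 to 2.73 and adjusted p from 3.77e-04 to 0.0316. RefSeq also lists a pseudogene, Cd63-ps, a similar copy with which the probe set could share signal.

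Tspan8, an epithelial tetraspanin of gut and pancreas that is known from exosomes of gastrointestinal tumours, had the largest rise of the family. Its log2 intensity was 6.83, 7.47, 7.16 and 6.49 in the control livers. In HCC arrays 1 to 5 it was 11.43, 12.64, 8.94, 10.49 and 9.84. All tumours lay above all controls, but the tumours differed among themselves by 3.70 log2 units, from HCC array 3 at the bottom to HCC array 2 at the top. Means were 6.99 ± 0.42 and 10.67 ± 1.43, a 12.8-fold rise (log2 change 3.68, SE 0.65, 95% interval 2.21 to 5.15, limma adjusted p = 0.0460). It had the 5th largest log2 rise of all genes but only the 124th smallest p. The direction held under all 18 alternatives (3.14 to 4.22), while the call was lost without any 1 of control arrays 1 to 4 (adjusted p = 0.138, 0.115, 0.141 and 0.111), HCC array 1 (0.0724) or HCC array 4 (0.0917). All genes called higher fell from 171 to between 10 and 31 when a control array was left out, so fewer genes of any kind passed there.

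**Figure D2:**
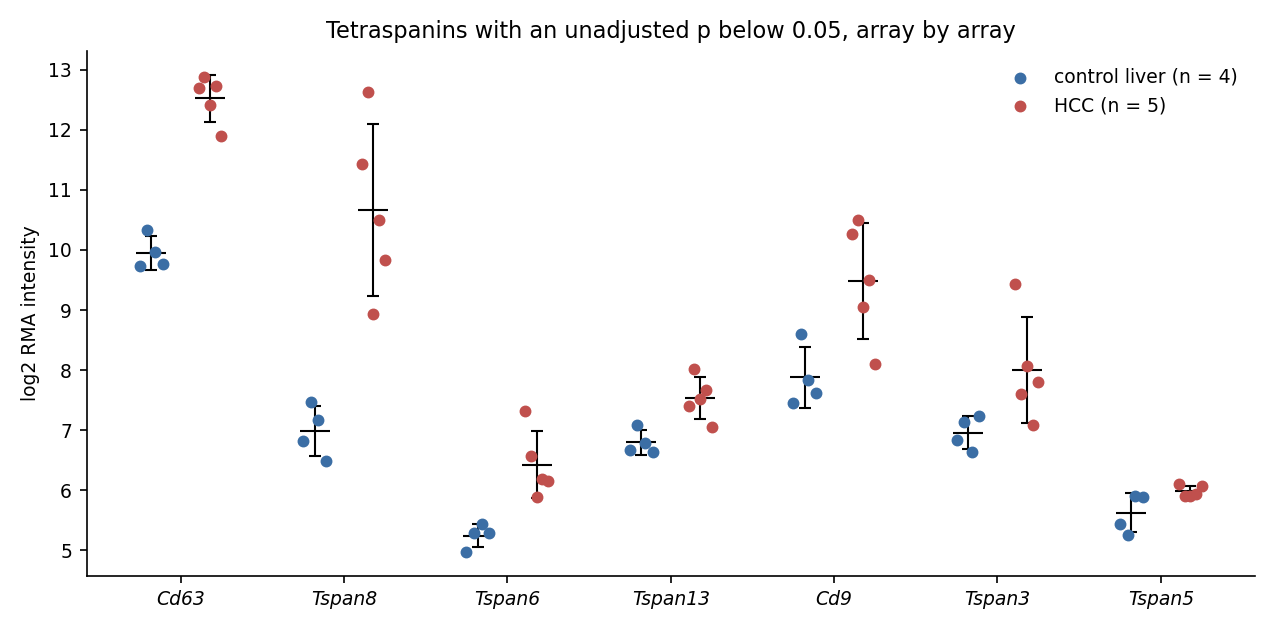
Log2 intensity on each array of the 7 tetraspanins with an unadjusted p below 0.05 in limma. Points are arrays (blue, 4 control livers; red, 5 HCC), and black bars give the mean and SD of each group. Cd63, Tspan8 and Tspan6 do not overlap between groups, and Tspan8 spreads from 8.94 to 12.64 among the tumours.

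The stretches just before 1 annotated start site of each of these genes are printed because Cd63 and Tspan8 were the members that rose. Each holds 250 bases from RefSeq, read 5′ to 3′ on the plus strand of GRCm38.p6, with motif matches in capitals. Cd63 is at chr10:128909095-128909344 and Tspan8 at chr10:115817034-115817283. Both lie inside the RefSeq gene intervals, which begin 12864 bases before the Cd63 window and 217 bases before the Tspan8 window, so other annotated transcripts may start further upstream.
Cd63: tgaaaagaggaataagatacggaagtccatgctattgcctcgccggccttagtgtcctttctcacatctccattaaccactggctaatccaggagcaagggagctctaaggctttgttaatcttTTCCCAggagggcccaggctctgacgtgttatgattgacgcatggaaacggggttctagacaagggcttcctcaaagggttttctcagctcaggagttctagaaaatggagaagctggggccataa
Tspan8: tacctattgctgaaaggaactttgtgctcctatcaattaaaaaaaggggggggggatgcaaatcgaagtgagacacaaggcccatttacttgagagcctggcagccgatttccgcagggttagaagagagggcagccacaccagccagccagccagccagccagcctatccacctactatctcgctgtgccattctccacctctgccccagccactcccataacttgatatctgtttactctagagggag

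The search covered both strands for TGGGAA, the core that Rbpj, the DNA-binding partner of NICD, reads. It also covered the E-box, spelled CACGTG, and the AP-1 site, spelled TGANTCA, which read the same on either strand. The remaining motifs were the TATA box, searched as TATAAA, and the GC box, searched as GGGCGG. The Cd63 window held 1 match, TTCCCA at positions -126 to -121 from the start site, which is TGGGAA on the opposite strand. The Tspan8 window held none of the 5 motifs. The Rbpj core was present in 12 of the 36 promoter windows listed for 26 of the tetraspanins, and in 21.6% of all 32851 windows of the same length. A gene can have several windows, and these 12 belonged to 9 of the 26 genes. The difference in share was not tested. The longer form GTGGGAA, which contains that core, was in 2 of the 36 and in 5.42% of all windows. The E-box was in 2 of the 36 and in 6.02% of all windows, the AP-1 site in 1 and 6.75%, the TATA box in 1 and 12.4%, and the GC box in 15 and 32.7%. These matches describe letters only.

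The remaining tetraspanins of adhesion and exosome complexes did not pass. Cd9, which binds the precursor of the growth factor HB-EGF and integrins, measured 7.45, 8.61, 7.84 and 7.62 in control livers and 10.27, 10.49, 9.05, 9.51 and 8.11 in HCC arrays 1 to 5. Only HCC array 5 fell inside the control range, below control array 2. Means were 7.88 ± 0.51 and 9.49 ± 0.96 (log2 change 1.61, 95% interval 0.55 to 2.67, limma adjusted p = 0.122), and without HCC array 5 the change was 1.95 (adjusted p = 0.0239). Cd9 was highest on HCC arrays 1 and 2, as was Tspan8. This gene, too, has a pseudogene, Cd9-ps.

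Cd81, which malaria sporozoites need to infect hepatocytes and which belongs to the B cell coreceptor, measured 11.02 ± 0.08 and 11.18 ± 0.27 (95% interval of the log2 change -0.15 to 0.46, limma adjusted p = 0.534). Cd151, which holds laminin-binding integrins in place, measured 8.01 ± 0.41 and 8.42 ± 0.32 (interval -0.078 to 0.89, adjusted p = 0.317). Cd82, a suppressor of metastasis, measured 9.22 ± 0.27 and 9.36 ± 0.52 (interval -0.44 to 0.72, adjusted p = 0.782). It was above all controls on HCC arrays 2 and 3, at 9.86 on both, and below them all on HCC arrays 1 and 4, at 8.84 and 8.80. Tspan4, which organises migrasomes, measured 8.07 ± 0.55 and 7.98 ± 0.30 (adjusted p = 0.866), and epithelial Tspan1 4.53 ± 0.12 and 4.50 ± 0.10 (adjusted p = 0.845). In the group of 8 genes, 2 rose and none fell, with a median log2 change of 0.28.

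Partners of these proteins were examined as a list of 24, of which 23 were measured. None passed in limma, and at an unadjusted p below 0.05, 5 were higher and 3 lower, against 10.5% and 9.85% of all genes. The median log2 change was 0.099 against -0.033 over all genes. Epcam, an adhesion protein of bile duct and progenitor cells that joins claudin-7 and Tspan8 in a complex, measured 5.93, 5.88, 6.20 and 5.70 in control livers and 7.60, 7.74, 6.51, 6.82 and 6.93 in HCC. The groups did not overlap, but the change of 1.19 did not pass (limma adjusted p = 0.0604; 0.0394 without HCC array 5). Cldn7, encoding claudin-7, measured 6.97, 6.73, 6.61 and 6.67, then 7.54, 9.05, 7.00, 7.61 and 7.89, again without overlap (adjusted p = 0.144). HCC array 2 was the highest tumour for Epcam, Cldn7, Tspan8 and Cd9. The integrin Itga5 (6.62 ± 0.09 and 7.05 ± 0.22, adjusted p = 0.104) and the complement receptor Cr2 (5.28 ± 0.17 and 6.27 ± 0.69, adjusted p = 0.144) also lay apart, higher in HCC. The integrin Itgb4 (6.65 ± 0.04 and 6.50 ± 0.04, adjusted p = 0.176) and the uroplakin Upk3b (6.78 ± 0.05 and 6.54 ± 0.19, adjusted p = 0.231) lay apart and lower. Another integrin of the list, Itga6, had a positive change with overlap (7.13 ± 0.28 and 8.22 ± 0.84, limma adjusted p = 0.172). Non-overlap therefore concerned 4 higher and 2 lower of 23 partners, against 5.63% and 3.86% of all genes. Without HCC array 5, Epcam and Cr2 passed as higher and the interferon-induced Ifitm1 as lower, in a setting where 631 of all genes passed as higher and 556 as lower.

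Cd63 is a standard marker of exosomes and of the lysosomal membrane, so 2 further lists were read beside it. Of 17 genes of exosomes and multivesicular bodies, among them Pdcd6ip (Alix), Tsg101 and Sdcbp (syntenin), none passed in limma and the median log2 change was 0.11. At an unadjusted p below 0.05, 3 were higher and none lower, against 10.5% and 9.85% of all genes. The membrane-binding annexin Anxa2 came nearest, at 7.74, 8.80, 8.30 and 7.53 in control livers and 10.77, 10.30, 10.09, 9.86 and 8.85 in HCC (change 1.88, limma adjusted p = 0.0571). Its groups did not overlap, though HCC array 5 lay only just above control array 2, and without HCC array 5 it passed (adjusted p = 0.00951), as did the small GTPase Rab27a (0.0394). Of the core exosome genes, Pdcd6ip measured 10.31 ± 0.02 and 10.22 ± 0.17, Tsg101 9.17 ± 0.25 and 9.33 ± 0.15, and Sdcbp 10.62 ± 0.13 and 10.73 ± 0.37. Of 24 measured lysosome genes, a list written after values had been seen, none passed in limma. The change was negative in 16, against 11457 of all 19938 genes, and the largest rise of the list was 0.31 on the log2 scale. At an unadjusted p below 0.05 none of the lysosome genes was higher and 3 were lower, against 10.5% and 9.85% of all genes. The protease Ctsl lay apart and lower (log2 change -0.22). Lamp1 and Lamp2, the main membrane glycoproteins of lysosomes, measured 11.33 ± 0.11 and 11.08 ± 0.25, and 12.36 ± 0.07 and 12.03 ± 0.31. The rise of Cd63 thus stood beside lists of which no member passed; whether the difference between Cd63 and those genes exceeds chance was not tested.

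**Figure D3:**
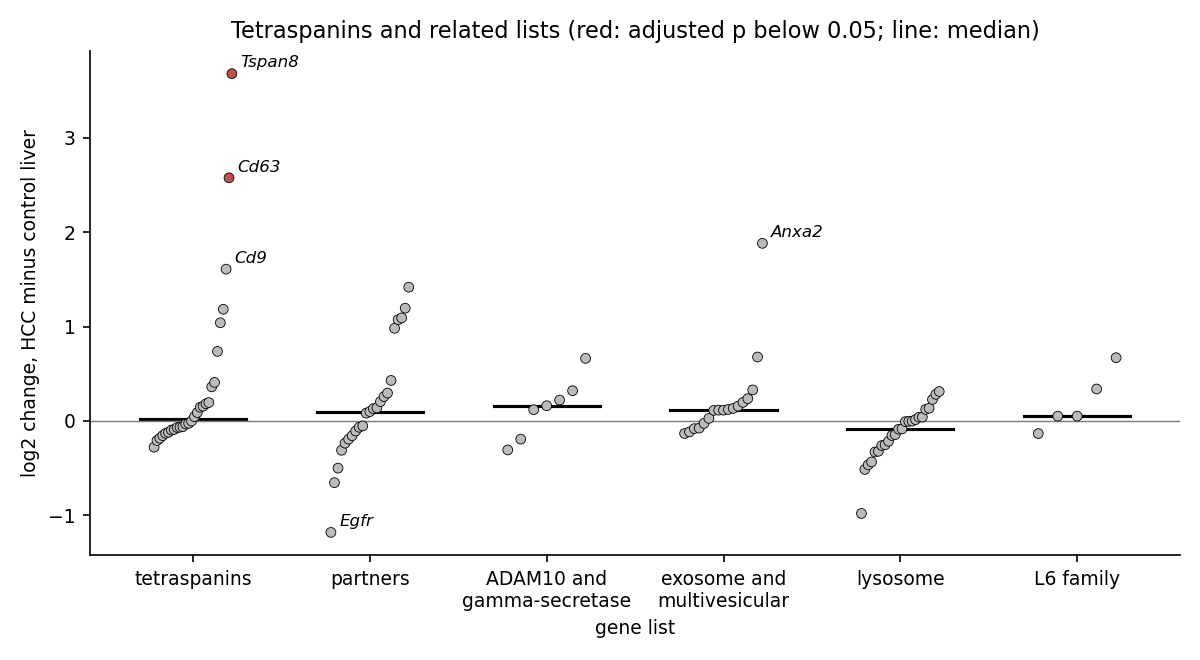
Log2 change, HCC minus control liver, of each measured gene of the tetraspanins and of 5 related lists. Points are genes, ordered by value within a list, red where the limma adjusted p was below 0.05, and the black line is the median. Cd63 and Tspan8 are the only red points, and medians lie between -0.087 and 0.16.

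The TspanC8 tetraspanins, which carry ADAM10 out of the endoplasmic reticulum and set its substrates, did not pass in any of the 6 members. At an unadjusted p below 0.05 limma gave 1 higher, Tspan5, and none lower, against 10.5% and 9.85% of all genes. The group median was 0.010. Tspan5, which favours Notch cleavage by ADAM10, measured 5.44, 5.26, 5.91 and 5.89 in control livers and 6.10, 5.91, 5.91, 5.93 and 6.07 in HCC (log2 change 0.36, limma adjusted p = 0.201). Control array 3 and HCC arrays 2 and 3 had an identical value, so the groups met at that point. Tspan14, the other member known to promote Notch cleavage in many cells, measured 7.18 ± 0.07 and 7.27 ± 0.15 (interval of the change -0.11 to 0.29). Tspan15, which directs ADAM10 to N-cadherin, was at 7.45 and 7.33 on HCC arrays 2 and 3 and at 5.85 to 6.17 on the other tumours, against 6.18 to 6.57 in controls. The tumours thus lay on both sides of the control range. Tspan17 was at 8.20 on HCC array 2 and at 6.43 to 6.86 on the other tumours, against 6.86 to 7.16 in controls. Tspan33, known from B cells and erythroid cells, measured 6.63 ± 0.08 and 6.56 ± 0.27, and Tspan10 6.69 ± 0.21 and 6.56 ± 0.10.

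Adam10 itself measured 8.15, 8.81, 8.49 and 8.34 in control livers and 9.68, 9.31, 8.95, 8.86 and 8.75 in HCC. Only HCC array 5 lay inside the control range, and the change of 0.66 did not pass (limma adjusted p = 0.134, 0.0706 to 0.279 over 18 alternatives). Of the 7 measured genes of ADAM10, Adam17 and gamma-secretase none passed. At an unadjusted p below 0.05, 1 was higher and none lower, against 10.5% and 9.85% of all genes.

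Leukocyte tetraspanins did not pass. Cd53, a marker of all leukocytes, measured 7.86, 9.32, 8.88 and 8.56 in control livers and 8.61, 10.19, 8.40, 8.80 and 8.17 in HCC (limma adjusted p = 0.838). HCC array 2 lay above all controls and the other tumours within their range. The pan-leukocyte phosphatase Ptprc was also highest on HCC array 2, at 10.13 against 8.11 to 9.06 on the other tumours and 8.33 to 9.04 in controls. Cd37 of B cells (6.82 ± 0.08 and 6.82 ± 0.07, interval of the change -0.15 to 0.15) and Tspan32 of lymphoid and myeloid cells (5.50 ± 0.05 and 5.48 ± 0.04) were close to level between groups.

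The uroplakins Upk1a and Upk1b, tetraspanins of the urothelial membrane, measured 6.27 ± 0.03 and 6.21 ± 0.04, and 6.27 ± 0.28 and 6.06 ± 0.33 (limma adjusted p = 0.562 and 0.556). Tspan12, which assists the receptor Fzd4 in Norrin signalling, measured 11.98 ± 0.13 and 11.89 ± 0.30 (interval -0.44 to 0.24). Its partner Fzd4 measured 7.78 ± 0.18 and 7.28 ± 0.49 (adjusted p = 0.264). Tspan9 of platelets (7.27 ± 0.11 and 7.14 ± 0.18) and Tspan18 of endothelial cells (5.91 ± 0.13 and 5.96 ± 0.06) did not pass either.

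Among the other tetraspanins, Tspan6 came nearest to a call. Tspan6, a regulator of endosomal sorting encoded on the X chromosome, measured 4.98, 5.28, 5.43 and 5.28 in control livers and 7.33, 6.58, 5.89, 6.19 and 6.16 in HCC. The groups did not overlap, and the 2.27-fold change (log2 1.18, SE 0.26) had a limma adjusted p of 0.0657. Xist, transcribed from an inactive X, was between 10.68 and 11.76 on control arrays 1 to 3 and HCC arrays 1 and 2 and between 4.83 and 5.10 on the other 4 arrays. High Xist was thus more frequent among the control arrays than among the tumours. The tumours with high Xist were those with the highest Tspan6, whereas control array 4, with low Xist, lay within the range of the other controls. The same tumours were highest for Tspan8, Cd9 and Epcam. Sex is not given in the labels, and its part in these values was not tested. In a fit that took Xist as a covariate the change of Tspan6 was 1.35 (adjusted p = 0.0475). It also passed with array weights (0.0444), without HCC array 1 (0.0477) and without HCC array 5 (0.0419).

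Tspan13, described in several carcinomas, measured 6.68, 7.09, 6.78 and 6.64 in control livers and 7.40, 8.02, 7.53, 7.66 and 7.06 in HCC. HCC array 5 lay just below control array 2, and the change of 0.74 (SE 0.18) did not pass (limma adjusted p = 0.0871; 0.0225 without HCC array 5). Tspan3, which interacts with ADAM10 and the amyloid precursor protein, measured 6.84, 7.13, 6.64 and 7.23, then 9.44, 7.60, 8.06, 7.09 and 7.81. HCC array 1 stood highest and HCC array 4 lay within the controls (change 1.04, interval 0.13 to 1.95, adjusted p = 0.201). Tspan2 of oligodendrocytes (6.19 ± 0.13 and 6.03 ± 0.08), Tspan11 (7.01 ± 0.10 and 6.82 ± 0.21) and Tspan31, a neighbour of Cdk4 that is amplified with it in sarcomas (11.03 ± 0.11 and 10.75 ± 0.38), had negative changes, with adjusted p between 0.308 and 0.409. Tspan31 was lowest on HCC array 1, at 10.14. Tspan7 was on the list by role but was not analysed here.

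**Figure D4:**
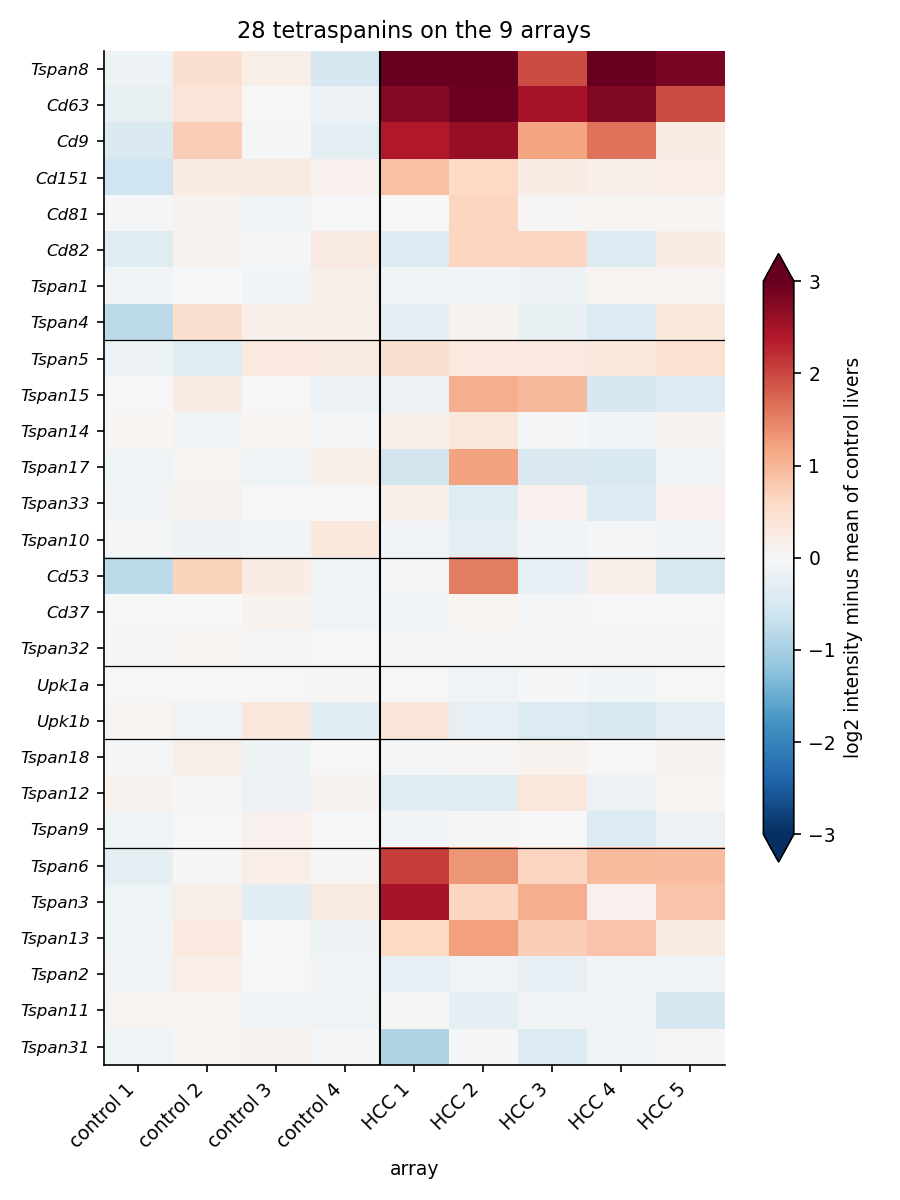
Log2 intensity of the 28 tetraspanins on each array minus the mean of the control livers. Rows are genes in the order of the role groups, columns are arrays, and colours end at 3 log2 units, which Tspan8 exceeds on HCC arrays 1, 2 and 4. Strong red is limited to Tspan8, Cd63, Cd9, Tspan6 and Tspan3, and most other rows stay pale.

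The tumours varied more than the controls in 19 of the 28 tetraspanins by SD. The share of all genes with a larger SD in HCC was not computed, so this count is not read as a trait of the family. HCC array 2 held the highest tumour value of 12 members, HCC array 1 of 7, and HCC arrays 3, 4 and 5 of 2, 3 and 3. Over all genes the corresponding shares were 18.4%, 21.4%, 15.3%, 21.1% and 17.9%. HCC array 2 also had the highest sums of the lists of leukocyte markers. The summed linear intensity of 6 measured pan-leukocyte and B cell markers was 1494 there, against 537 to 817 on the other tumours and 619 to 800 in controls. That of 9 macrophage and neutrophil markers was 18356, against 2577 to 8969 and 2989 to 7426. For 7 T and NK cell markers, 3 with a positive and 4 with a negative change, it was 724, against 480 to 651 and 572 to 643. Such sums weigh bright genes most. On HCC array 2 these were Ptprc (log2 intensity 10.13) in the first list and S100a9 (12.54), Vsig4 (11.90) and S100a8 (11.87) in the second. Of the 9 macrophage and neutrophil markers, 3 had a positive and 6 a negative change. None of those lists held a gene past the threshold.

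Markers of other cell types were read beside the rises, and their lists differed in direction. The summed intensity of 9 measured bile duct markers was 894 to 1251 in control livers and 1603 to 5820 in HCC, without overlap. All 9 had a positive change and Sox9, a transcription factor of biliary cells, rose (7.35 ± 0.14 and 9.50 ± 0.65, limma adjusted p = 0.0228; 0.0629 to 0.103 without 1 of the control arrays). Of the 9, 4 lay apart and higher and none apart and lower. As a reference for this and the lists below, over all 19938 genes 8481 changes were positive and 11457 negative. The shares called higher and lower were 0.858% and 0.160%, and those apart were 5.63% higher and 3.86% lower. The sum of the bile duct markers was highest on HCC arrays 1 and 2, where Tspan8 and Cd9 were highest. Among tumours it was lowest on HCC array 3, where Tspan8 was lowest. Cd63 and Cd9 were instead lowest on HCC array 5, where the sum was 2134, and Cd63 was highest on HCC arrays 2 and 4. Summed platelet markers, whose cells carry Cd63 in their granules, were 455 to 508 in controls and 501 to 2037 in HCC, with none of 5 past the threshold. Among these 5, changes were positive for Pf4 (log2 change 1.34, apart and higher) and Ppbp (1.10) and negative for Gp9, Gp5 and Itga2b, of which Itga2b lay apart and lower (-0.22). Hepatocyte markers were present in both groups, but all 7 measured had a negative change and none passed. Alb measured 13.55 ± 0.08 and 13.30 ± 0.23. Tat and Cps1 lay apart and lower (log2 changes -0.88 and -0.83, limma adjusted p = 0.111 and 0.106), and Cyp3a11 had the largest difference of the list (-2.64, adjusted p = 0.267). The sum of the 7 was 60204 to 62924 in controls. In HCC it was 61017 on array 5, inside the control range, and 38539 to 50166 on the other tumours. Of 8 endothelial markers 3 had a positive and 5 a negative change, and Kdr and Clec4g lay apart and lower (log2 changes -0.64 and -1.58). Of 8 stellate cell and fibroblast markers 5 had a positive and 3 a negative change, from -1.19 to 1.09. Among the latter list Col1a2 lay apart and higher (0.21). Neither list held a gene past the threshold. No intensity is 0 on this scale, so no marker could be called absent. In bulk tissue more cells of a type and more RNA per cell cannot be told apart, and the part of these cell types in the rises of Cd63, Tspan8 and Cd9 was not tested.

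Several tetraspanin genes are neighbours in the RefSeq gene order: Tspan18 and Cd82, Tspan32 and Cd81, and Tspan9 and Tspan11 are adjacent coding genes, and Cd151 and Tspan4 have 1 coding gene between them. None of these 8 passed. The genes that rose had no neighbours past the threshold. The 3 coding genes on each side of Cd63 changed by -0.16 to 0.24 on the log2 scale. Of the 6 around Tspan8, 5 were measured and changed by -0.96 to 0.73. Among them Lgr5, a Wnt-responsive stem cell receptor, measured 7.38 ± 0.16 and 8.11 ± 1.47 (limma adjusted p = 0.554). The 6 around Tspan6 changed by -0.30 to 0.18.

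Outside the family by the naming rule, the photoreceptor tetraspanins Prph2 and Rom1 did not pass (log2 changes -0.15 and 0.0097). Of 5 genes of the L6 family, which share the membrane layout but not the extracellular signature of tetraspanins, none passed. Tm4sf4, a liver and bile duct protein, came nearest (12.02 ± 0.23 and 12.69 ± 0.28, limma adjusted p = 0.0809). At an unadjusted p below 0.05, 1 L6 gene was higher and none lower, against 10.5% and 9.85% of all genes.

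**Figure D5:**
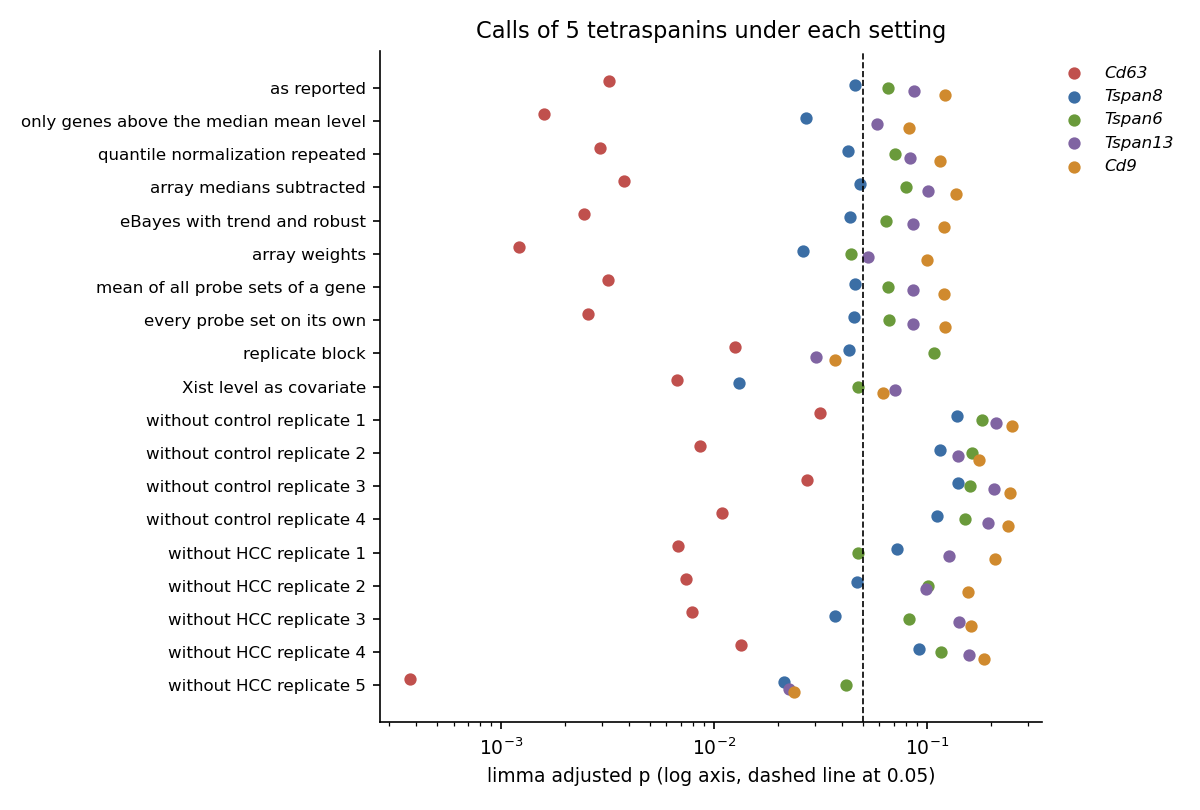
Adjusted p from limma (log axis) of 5 tetraspanins as reported and under each alternative, with a dashed line at 0.05. Cd63 stays left of the line in every row, Tspan8 crosses it without any control array or without HCC array 1 or 4, and Cd9 and Tspan13 pass with the replicate block and without HCC array 5. Tspan6 has no point where only genes above the median level were kept.

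The count of tetraspanins called higher therefore depended on single arrays. It was 1, Cd63 alone, without any 1 control array or without HCC array 4. It was 2 without HCC array 1 (Cd63 and Tspan6), and Cd63 and Tspan8 without HCC array 2 or 3. It was 5 without HCC array 5, where Cd9, Tspan6 and Tspan13 joined Cd63 and Tspan8, while the genes called over the whole array went from 171 to 631 higher and from 32 to 556 lower. No tetraspanin was called lower under any of the 18 alternatives.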

How the data were processed

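Total RNA from 9 mouse livers and tumours was hybridised to Affymetrix Mouse Gene 1.0 ST arrays, 1 per sample. The authors deposited RMA intensities, per the submitters' processing notes, with GenePattern and R named in the labels of the series. RMA corrects background, quantile-normalises and summarises by median polish. Their versions are not given in the sources used here. All intensities are linear, as judged from their values, which ran from 3.91 to 21468 with array medians of 91.5 to 101. They were transformed to log2 with no pseudocount. Of the 19938 genes, 47.4% repeat a value on several arrays, as do 14 of the 28 tetraspanins.

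Of 35512 probe sets, 21789 had 1 gene symbol in the platform annotation, 1621 several and 12102 none, and 21698 of those with 1 matched the RefSeq gene table (GRCm38.p6, used for names and gene order). The probe set with the highest mean was kept per gene. The groups were compared with limma 3.58.1 (lmFit, eBayes) in R 4.3.3, two-sided, over all 9 arrays with group as the only term, and the fit was tested on simulated data. Python 3.11.15, pandas 2.3.3, numpy 2.4.6 and matplotlib 3.10.9 were used.

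All members may be named; those past the threshold, apart between groups or at an unadjusted p below 0.05 are given array by array. From other lists the genes past the threshold or apart, and Adam10, Ptprc, Epcam, Cldn7, Pecam1, Notch1 and Xist, were set to be named; others were chosen as examples after values were seen. Members and lists were chosen with earlier results of these data known. No label assigns an array to an animal, and p-values therefore measure spread between arrays, which may be technical. Alternatives were a filter at the median level, repeated quantile normalisation, median subtraction, array weights, a robust eBayes with trend, averaging a gene's probe sets or testing each, Xist as a covariate, the replicate number as a block, and omission of each array. The deviations of same-numbered arrays correlated at -0.0040, 0.32, -0.029 and -0.083 for numbers 1 to 4. Without the values of different-numbered arrays beside them, these 4 cannot decide whether the numbers pair the arrays. The labels state no pairing, and the fit as reported used none. Pecam1 measured 8.27 ± 0.22 and 8.43 ± 0.25, and Notch1 7.11 ± 0.13 and 7.40 ± 0.16, in control liver and HCC.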

Additional observations from a re-analysis of the deposited data

Results flagged for a closer look

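In 5 of the 56 groups of arrays examined (28 tetraspanins in control liver and in HCC), 1 array stood apart from its group by Dixon's gap over range. Chance flags about 1 in 20 such groups, or 2.8 of 56. Of these, 3 lay on HCC array 2. Cd81 was 11.66 there against 11.02 to 11.08 on the other tumours, Tspan17 8.20 against 6.43 to 6.86, and Tspan10 6.39 against 6.59 to 6.65. Upk1b was 6.63 on HCC array 1 against 5.81 to 6.02 on the other tumours. Cd151 was 7.41 on control array 1 against 8.14 to 8.28 in the other controls.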

How the results depend on the processing

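Cd63 kept its rise and its call under all 18 alternatives, and Tspan8 kept its rise under all 18 and its call under 12. Beside the 2 tetraspanins called higher, the count was 4 with the replicate number as a block (Cd63, Cd9, Tspan13, Tspan8) and 1 to 5 when 1 array was left out. HCC array 5 has no control of its number, so the block removes it from the contrast; the labels do not show that the numbers pair the arrays. No tetraspanin was called lower under any alternative. Over all genes, 171 higher and 32 lower became 285 and 93 with only genes above the median level, 108 and 11 after median subtraction, 503 and 246 with array weights and 259 and 220 with the replicate block, 50 lower after repeated quantile normalisation, and 10 to 631 higher and 0 to 556 lower without 1 array (at an unadjusted p below 0.05, 2095 higher and 1964 lower with all arrays in limma). Some log2 changes near 0 changed sign without passing: Cd37 was 0.0069 after median subtraction and 0.015 with Xist as covariate, Tspan17 0.034 with Xist, and Cd53 -0.14 and Tspan12 0.063 with array weights. Leaving out 1 array gave -0.037 to 0.030 for Cd37, -0.16 to 0.40 for Cd53, -0.061 to 0.023 for Tspan1, -0.031 to 0.37 for Tspan15, -0.39 to 0.054 for Tspan17, -0.0068 to 0.10 for Tspan18, -0.043 to 2.9e-04 for Tspan32, -0.13 to 0.0057 for Tspan33, -0.35 to 0.070 for Tspan4 and -0.0035 to 0.50 for Ptprc. The cause of these shifts was not tested. The filter left out 12 tetraspanins, Tspan6 among them. The 4 control arrays and the deposited RMA values, which could not be recomputed, limit what these data show.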

Other observations

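The uroplakin Upk3a, which pairs with the tetraspanin Upk1b in urothelium, was high on 2 tumours. Its log2 intensity was 9.67 on HCC array 1 and 10.38 on HCC array 3, against 5.95 to 6.44 on HCC arrays 2, 4 and 5 and 6.20 to 6.46 in control livers (limma adjusted p = 0.409). Upk1b was 6.63 and 5.86 on those 2 tumours, and Upk2 and Upk3b had negative changes. Upk3a was singled out after its values were seen.

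HCC array 1 held the highest tumour values of Tspan6, Tspan3, Cd151 and Tspan5 and the lowest of Tspan31. The chloride channel Cftr of bile duct epithelium was 10.85 on that array, against 5.57 to 6.82 on the other tumours and 4.67 to 5.29 in control livers, and the biliary keratin Krt19 was 7.96 there, its highest value. Both were named after their values were seen.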
